A study of Mus musculus with 4 samples.

Results

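Messenger RNA levels of 10 mouse genes that bind fatty acids in the cytosol or bring them into the cell were examined in aorta: Fabp1, Fabp2, Fabp3, Fabp4, Fabp5, Fabp7, Cd36, Slc27a1, Slc27a4 and Dbi. They are 10 of 8251 genes that had a probe set with 1 symbol on the array, and together they had 12 probe sets. A probe set is the group of short oligonucleotides that reports on 1 transcript. The genes were chosen by name, after the drug's effect on these same arrays was known and with Fabp3 and Fabp4 picked as a pair that differed in it. Their differences between drug and vehicle are therefore given as a description. Whether a probe set passed the threshold of the fit over all probe sets is stated as a count beside the share of all probe sets that did, and it supports nothing here.

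Aortas of grown male mice of the inbred strain C57BL/6J were the source. Their RNA was pooled and hybridised to Affymetrix MG-U74Av2 arrays. The mice of the rosiglitazone group had received 25 mg/kg of the drug daily for 21 days, and 2 arrays carried this group (replicates 1 and 2). The vehicle group had received the carrier alone for the same 21 days, on 2 further arrays (replicates 3 and 4). Rosiglitazone is a thiazolidinedione that activates PPARγ, a nuclear receptor. How many mice went into a pool, and whether each array had a pool of its own, is not in the labels, so the spread between arrays may be technical.

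Long-chain fatty acids dissolve poorly in water and travel inside the cell on small carrier proteins. The fatty acid binding proteins (FABPs) are such carriers, each typical of certain tissues, and hand fatty acids to membranes, enzymes and nuclear receptors, among them the PPARs. CD36 and the fatty acid transport proteins of the Slc27a family act at the membrane, the latter also as acyl-CoA synthetases that trap the fatty acid in the cell. Dbi, also called acyl-CoA binding protein, carries the activated form. Fabp4 and Cd36 are well-known target genes of PPARγ in fat cells, and Fabp3 is typical of heart, skeletal muscle and brown fat.

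The deposited intensities were on a linear scale with no detection calls. An intensity of 148, the 20th percentile over all arrays, served as a floor. Values below it have no order, and they were set to it before log2 differences were taken. A comparison in limma was made for the 7134 probe sets with a mean of at least 414 on the log2 scale, the 40th percentile of all values. Of the 12 probe sets of these genes 6 met this filter, those of Fabp3, Fabp4, Fabp5, Slc27a4 and Dbi and 1 of the 2 of Cd36, and 6 did not. Median intensities of the 4 arrays lay between 591 and 648. The 3′ to 5′ signal ratio of the actin control was 7.74 to 11.9 and that of Gapdh 8.79 to 11.1, so signal from the 5′ part of these control transcripts was low on every array. By group, the Gapdh ratio was 8.79 and 10.78 with rosiglitazone, against 11.08 and 11.10 with vehicle, without overlap. The actin ratio was 7.74 and 9.62 against 8.88 and 11.88, with overlap. Rosiglitazone replicate 1 had the lowest ratio of both controls. Whether this touched any of the 12 probe sets was not tested.

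Fabp3, the heart-type binding protein, was the member with the clearest difference. Its intensity was 13425 and 14910 with rosiglitazone, against 5401 and 4350 with vehicle (probe set 94214_at). Both treated arrays were high and both vehicle arrays low, and the lower treated array was still 2.49 times the higher vehicle array. The mean log2 intensity was 13.79 ± 0.11 in the treated group, against 12.24 ± 0.22 in the vehicle group (SD, n = 2 each), a log2 difference of 1.55 with a standard error of 0.22, or 2.92-fold. In the limma fit over all probe sets Fabp3 was the 1 of 6 tested probe sets of these genes past an adjusted p of 0.05, against 0.364% of all probe sets in either direction and 0.0421% in the higher direction. Because Fabp3 was picked for this contrast, nothing further is read from that count. With vehicle replicate 3 left out the difference was 1.70, and with vehicle replicate 4 left out it was 1.39, and in neither case did it pass, nor did it when the intensity filter or the intensity trend of the fit was dropped. In pooled tissue RNA, more cells of a type and more RNA per cell cannot be told apart.

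**Figure D1:**
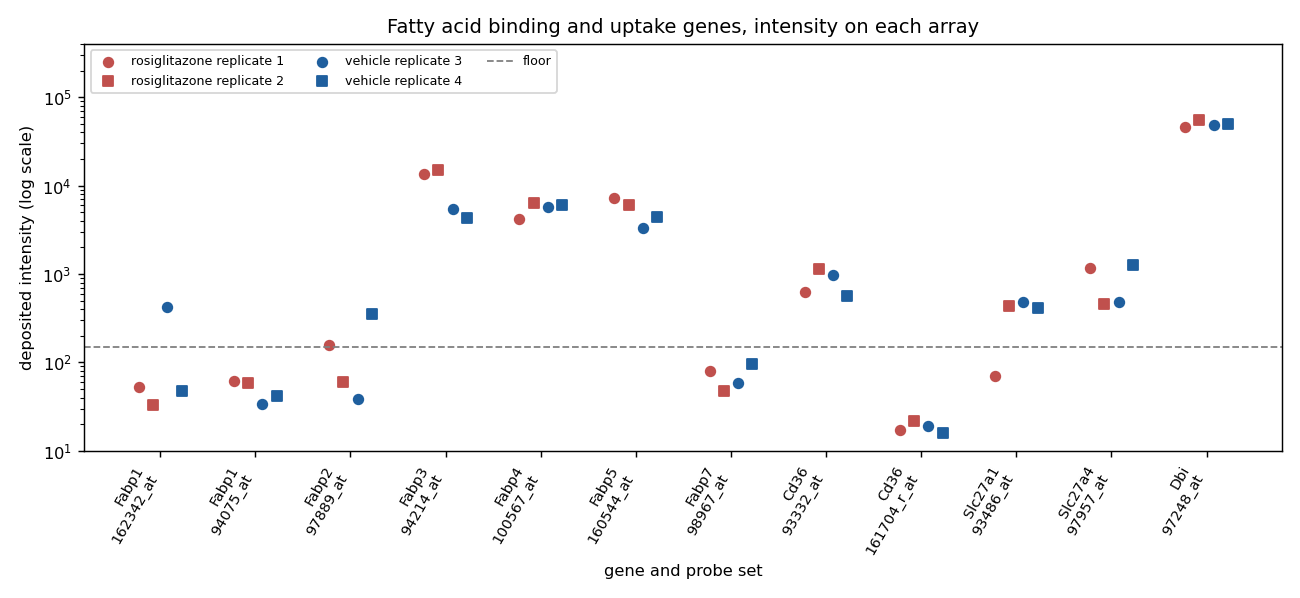
Deposited intensity on a log axis for each of the 12 probe sets, with 1 point per array, rosiglitazone in red and vehicle in blue, and the floor of 148 as a dashed line. The Fabp3 points separate by group (13425 and 14910 against 5401 and 4350), those of Fabp4 and Dbi lie together, and those of Fabp7 and of 1 probe set each of Fabp1 and Cd36 lie under the floor on every array.

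Fabp4, the adipocyte-type binding protein, showed no such separation. Its intensity was 4155 and 6415 with rosiglitazone, against 5752 and 6005 with vehicle (probe set 100567_at). The 2 vehicle arrays lay close together and between the 2 treated arrays, so the groups overlapped. The log2 difference was -0.19 with a standard error of 0.26, and leaving out 1 treated array gave 0.13 (replicate 1 left out) or -0.50 (replicate 2 left out). Its sign thus rested on the low value of rosiglitazone replicate 1.

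Set against each other on the same array, where the scaling between arrays cancels, the pair changed in relation by 3.32-fold. The log2 ratio of Fabp3 to Fabp4 intensity was 1.69 and 1.22 with rosiglitazone, against -0.09 and -0.47 with vehicle. The group means were 1.45 ± 0.34 and -0.28 ± 0.26 (SD, n = 2 each), a difference of 1.73 with no overlap between groups. Leaving out any 1 array gave differences from 1.49 to 1.97. Such a ratio shows that the 2 signals changed unequally. It does not show that Fabp4 was constant, and its absolute value has no meaning because different probe sets bind with different strength.

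**Figure D2:**
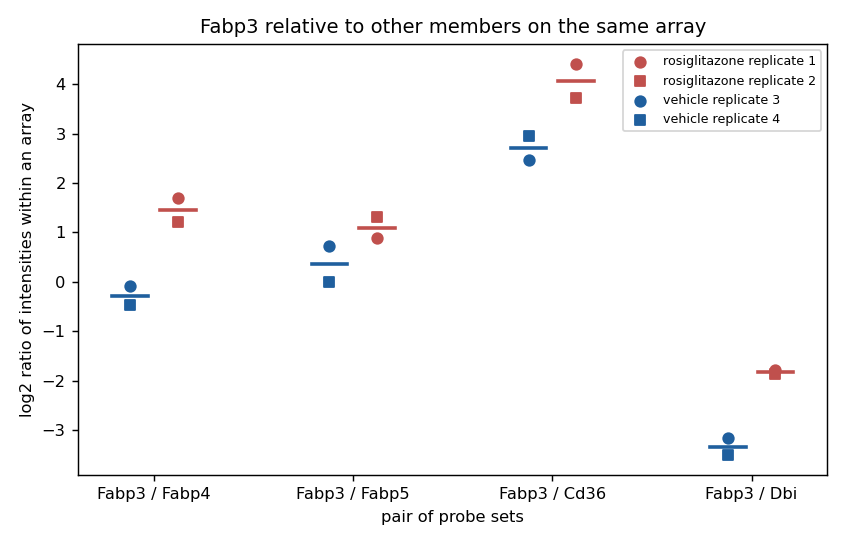
Log2 ratio of the Fabp3 intensity to that of Fabp4, Fabp5, Cd36 (the brighter probe set) and Dbi on the same array, with 1 point per array and bars at group means, vehicle in blue and rosiglitazone in red. Each pair of treated points lies above its pair of vehicle points, and the means differ by 1.73 for Fabp4, 0.74 for Fabp5, 1.35 for Cd36 and 1.51 for Dbi. All pairs share the Fabp3 intensity, which was picked for its difference, so they are not separate results. Heights of different pairs are not comparable.

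Fabp5, the epidermal-type binding protein, which is also made by macrophages and endothelium, lay between these 2 in its difference. It had 7284 and 6009 with rosiglitazone, against 3277 and 4388 with vehicle (probe set 160544_at). Both treated arrays were above both vehicle arrays, by 1.37 times at the nearest pair. The log2 difference was 0.80 with a standard error of 0.25, or 1.74-fold. It was positive with any 1 array left out, from 0.59 to 1.01. In the RefSeq gene table of the GRCm38.p6 assembly, Fabp5 and Fabp4 lie in 1 cluster on chromosome 3, with Pmp2 and Fabp9, 2 further genes of the family, between them. These neighbours thus had log2 differences of 0.80 and -0.19.

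Among the membrane proteins, Cd36, a scavenger receptor and fatty acid translocase, had 627 and 1135 with rosiglitazone, against 972 and 560 with vehicle on probe set 93332_at. Each group held 1 higher and 1 lower array and the groups overlapped. The log2 difference was 0.19 with a standard error of 0.55, and it ran from -0.23 to 0.62 with 1 array left out. Its other probe set, 161704_r_at, lay between 16 and 22 on all 4 arrays, under the floor, and gives no level for either group.

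Slc27a4, a fatty acid transport protein that is prominent in intestine and skin, had 1167 and 457 with rosiglitazone, against 483 and 1258 with vehicle (probe set 97957_at). The 2 arrays of a group differed by 2.55 times with rosiglitazone and 2.60 times with vehicle. That was more than the groups differed, at 1.07-fold lower with rosiglitazone. The log2 difference was -0.09 with a standard error of 0.66, from -0.78 to 0.60 with 1 array left out. Slc27a1, the transport protein of muscle and fat, had 71 and 438 with rosiglitazone, against 488 and 416 with vehicle (probe set 93486_at). It was not tested, since its mean lay under the filter. Rosiglitazone replicate 2 lay within the vehicle range and replicate 1 under the floor, so the log2 difference of -0.82 came from that 1 array and was -0.04 without it.

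Dbi, the acyl-CoA carrier, was close to level across arrays, at 46197 and 54587 with rosiglitazone, against 48450 and 49663 with vehicle (probe set 97248_at). The vehicle values lay between the treated ones. The log2 difference was 0.03 with a standard error of 0.20, and it turned to -0.027 with quantile normalization. With 1 array left out it lay between -0.087 and 0.15. Of the 6 tested probe sets 4 had a difference above 0 and 2 below. The groups did not overlap for 2 of the 6, Fabp3 and Fabp5, or 33.3%, where 40.8% of all 7134 probe sets had groups that did not overlap.

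**Figure D3:**
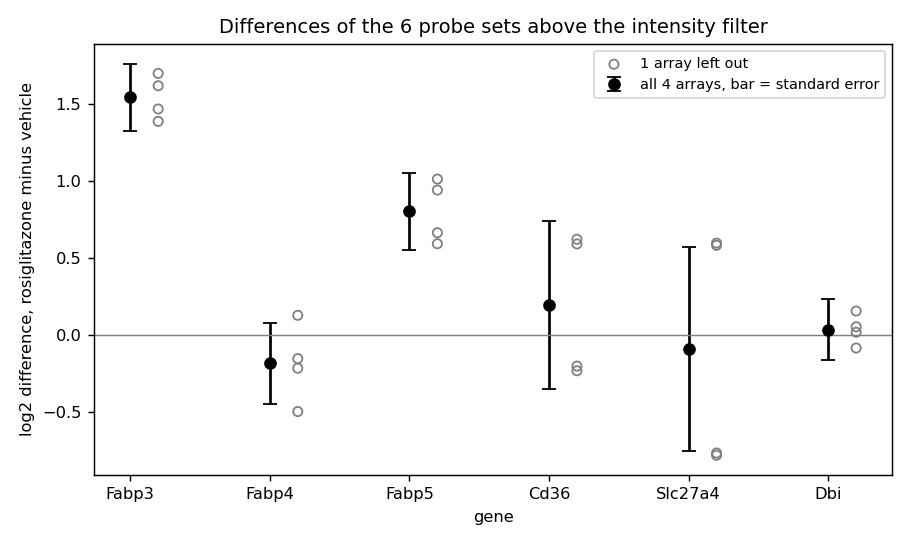
Log2 difference, rosiglitazone minus vehicle, of the 6 probe sets above the filter, as a black point with its limma standard error and, in grey, the 4 values with 1 array left out. All points of Fabp3 and Fabp5 lie above 0, from 1.39 to 1.70 and from 0.59 to 1.01 with 1 array left out, while those of the other 4 genes fall on both sides of 0.

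The binding proteins of liver, gut and brain gave little or no signal. Fabp7, the brain-type protein found in glia, had 79 and 48 with rosiglitazone, against 58 and 95 with vehicle, all under the floor (probe set 98967_at). Fabp1, the liver-type protein, lay between 34 and 61 on all arrays with probe set 94075_at. Its second probe set, 162342_at, had 53 and 33 with rosiglitazone, against 427 and 47 with vehicle, so that 1 vehicle array alone was above the floor. Fabp2, the intestinal protein, had 159 and 60 with rosiglitazone, against 39 and 350 with vehicle (probe set 97889_at), with 1 array of each group under the floor. No group difference can be read from these 4 probe sets. Hepatocyte and enterocyte markers were low as well, with a summed intensity over 10 genes of 2414 to 3789 with rosiglitazone and 3248 to 3895 with vehicle.

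PPARs bind DNA with a partner receptor at a repeat of the hexamer AGGNCA with 1 base between the copies, AGGNCANAGGNCA. This repeat was searched on both strands of the RefSeq promoter windows of GRCm38.p6, each 250 bases before and 50 after an annotated start. Of 32851 windows 125, or 0.381%, held the repeat, and 57.2% held at least 1 hexamer. Windows were listed for 8 of the 10 genes, 11 windows in all; Fabp4 and Fabp5 were not among them. The window of Fabp1 was the 1 of these 11 that held the repeat, on the minus strand from 67 bases before the start, at chr6:71199812-71199824. The window of Fabp3 held 1 hexamer and no repeat. The 250 bases before the start are shown for these 2 genes because the promoter that carries the repeat belongs to a gene with almost no signal, and the gene with the clearest difference has no repeat in its window. Capitals mark the repeat in Fabp1 (plus strand of chr6:71199629-71199878, where the repeat reads on the opposite strand as AGGCCATAGGTCA) and the hexamer in Fabp3 (plus strand of chr4:130308488-130308737). The further hexamers of Fabp1 outside the repeat are not in capitals.
Fabp1: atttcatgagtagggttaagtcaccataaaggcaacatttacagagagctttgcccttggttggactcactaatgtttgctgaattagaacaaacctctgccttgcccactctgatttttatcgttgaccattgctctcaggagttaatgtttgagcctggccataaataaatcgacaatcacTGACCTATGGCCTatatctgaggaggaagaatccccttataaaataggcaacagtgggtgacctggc
Fabp3: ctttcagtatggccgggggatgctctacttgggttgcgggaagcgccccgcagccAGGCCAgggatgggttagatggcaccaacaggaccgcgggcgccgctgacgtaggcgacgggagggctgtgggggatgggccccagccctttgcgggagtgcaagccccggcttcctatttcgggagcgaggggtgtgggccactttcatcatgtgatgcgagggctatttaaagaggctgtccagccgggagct
A match is a match of letters in this window alone. It says nothing on whether a receptor was bound there. No repeat in the window says nothing on sites farther away, or on sites inside the window that depart from the searched letters.

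Other genes of fatty acid handling were set beside these 10 in 4 overlapping lists, with 59 different genes tested, each on its brightest probe set. The lists were drawn up knowing earlier results of these arrays. Counts at an unadjusted p under 0.05 are given below for these lists and for marker lists. Of all 7134 probe sets tested, 776 had such a p in limma, in either direction. One gene of the 59 passed in limma, Lipa, the lysosomal acid lipase (log2 difference 3.43, standard error 0.52, adjusted p = 0.035). Its call was lost when arrays were centred on their medians, with no filter and with no intensity trend. Lipa had 3103 and 1880 with rosiglitazone, against 220 and 229 with vehicle. Both vehicle values lay under the filter of 414, so Lipa was tested only through its treated arrays, and its call supports nothing here.

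Of the list of PPARγ targets 23 genes were tested and 0 passed in limma after adjustment; at an unadjusted p under 0.05, 12 were higher and 1 lower. A total of 21 lay above 0 with a median log2 difference of 0.66, against -0.02 for all probe sets tested. Among the 21 was Ehhadh, which had 795 and 750 with rosiglitazone, against 189 and 297 with vehicle. Both vehicle values lay under the filter of 414, so Ehhadh was tested only through its treated arrays. Its place among the genes above 0 or without overlap supports nothing here. Of the 23, 9 are also in the adipocyte marker lists described further on, and the other 14 had 13 above 0 and a median of 0.75. Those with the smallest p were Aqp7, the glycerol channel of fat cells, at 1.49 (adjusted p = 0.0687), Acaa1b, a peroxisomal thiolase, at 1.11 (adjusted p = 0.0780), Lipe, the hormone-sensitive lipase, at 1.10 (adjusted p = 0.0799), and Angptl4, an inhibitor of lipoprotein lipase, at 1.13 (adjusted p = 0.105). The 2 genes below 0 were Scd1, a fatty acid desaturase, and Retn, the hormone resistin. In this list the groups did not overlap for 19 of 23 genes, 82.6%, which is above the 40.8% of all probe sets. This was not particular to the list. The share was 83.3% for fatty acid oxidation, 81.2% for triglyceride storage and lipolysis and 22.2% for release, activation and other carriers. In the marker lists it was 85.7% for brown and 53.8% for white adipocytes, 81.2% for macrophages, 80% for smooth muscle and 35.7% for cardiac and skeletal muscle.

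Fatty acid oxidation had 24 genes tested and 0 past the threshold in limma, with 9 higher and 0 lower at an unadjusted p under 0.05. Of these 21 lay above 0, with a median of 0.46, and the genes with the smallest p after Acaa1b were Mlycd, malonyl-CoA decarboxylase, at 0.84 (adjusted p = 0.196), Ech1, an enzyme for unsaturated fatty acids, at 0.76 (adjusted p = 0.215), and Cpt2, the inner-membrane carnitine palmitoyltransferase, at 0.69 (adjusted p = 0.252). Ehhadh, tested only through its treated arrays, is again among the 21. Triglyceride storage and lipolysis had 16 genes tested, 14 of them above 0 and a median of 0.58, with Lipa called and 10 higher and 0 lower at an unadjusted p under 0.05. Lipa, also tested only through its treated arrays, is among these 10.

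The list closest in function to the 10 genes held differences of both signs. Of 33 genes for fatty acid release, activation and other carriers 19 were on the array and 9 were tested, with 5 above 0 and 4 below and a median of 0.07. None (0) passed in limma, and at an unadjusted p under 0.05 1 was lower and 0 higher. That gene was Acsl5, an acyl-CoA synthetase, at -0.65 (adjusted p = 0.411). The caveolar protein Cav1 was at -0.44 (adjusted p = 0.594), the transport protein Slc27a2 at 0.27 (adjusted p = 0.701) and Scp2, a sterol carrier, at 0.28 (adjusted p = 0.814). A dimmer probe set of Scp2 was at 0.64 with no overlap between groups and an unadjusted p of 0.0244 in limma (adjusted p = 0.368), so the count of 0 higher rests on taking the brightest probe set. Leaving out 1 array turned the median of this list below 0 in 3 of 4 cases, to -0.29 without rosiglitazone replicate 1, -0.04 without rosiglitazone replicate 2 and -0.04 without vehicle replicate 3.

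**Figure D4:**
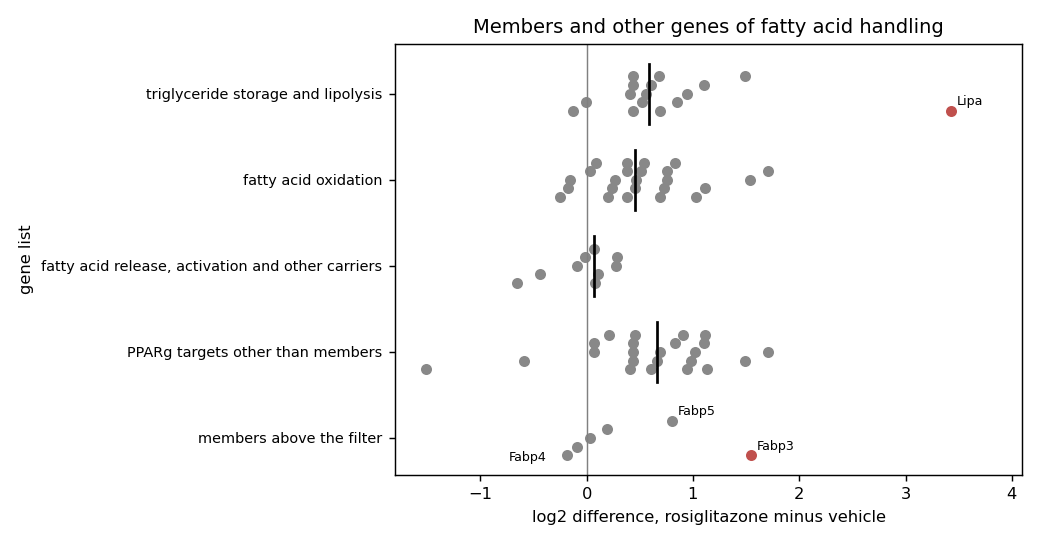
Log2 difference, rosiglitazone minus vehicle, of the 6 tested probe sets of the 10 genes and of the tested genes of 4 lists, 1 point per gene, with list medians as black bars and genes past an adjusted p of 0.05 in red. Medians lie at 0.66, 0.07, 0.46 and 0.58 from the lower to the upper list, Fabp3 at 1.55 and Lipa at 3.43 are in red, and Fabp4 lies at -0.19.

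The probe sets whose pattern over the 4 arrays was nearest to that of Fabp3, by root mean square difference of centred log2 intensities among 6387 named probe sets, were those of Dlx6os2 (0.0508), Angptl4 (0.112), Rps6kb2 (0.132), Aqp7 (0.142) and Cldn5 (0.146). Cldn5, a tight junction protein, is also among the endothelial markers. Dlx6os2, the nearest, had 776 and 790 with rosiglitazone, against 291 and 246 with vehicle, the latter under the filter of 414. Angptl4 had 2676 and 2399 with rosiglitazone, against 968 and 808 with vehicle on this probe set. Rps6kb2 had 1387 and 1217 against 477 and 364, Aqp7 had 4257 and 4593 against 1533 and 1620, and Cldn5 had 4315 and 3704 against 1555 and 1369. Nearest to Fabp4 were Bag6 (0.0127), Crnkl1 (0.0179), H2-D1 (0.0252), Shisa5 (0.0382) and Eif5 (0.0390), each with its lowest value on rosiglitazone replicate 1. No gene of the 4 lists was among these 5. Likeness over 4 arrays is a weak measure and is given as a description.

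Marker lists of cell types that make these proteins were summed on the same arrays. Brown adipocyte markers summed to 406005 to 443134 with rosiglitazone and 293045 to 297324 with vehicle over 9 genes. Of 7 tested 6 lay above 0, with a median of 0.34, and Ucp1, the uncoupling protein of brown fat, had 97796 and 73418 against 54981 and 33472. Most of the sum was Cidea, at 240828 and 286124 against 188712 and 199365. The 1 gene below 0, Dio2, had 2979 and 4037 against 4378 and 4313, with no overlap. White adipocyte markers summed to 518593 to 549153 against 455993 to 470784 over 13 genes, with 8 of 13 above 0 and a median of 0.07. Adipoq, the adipocyte hormone adiponectin, had 165554 and 195068 with rosiglitazone, against 125080 and 136822 with vehicle, so transcripts of fat cells were abundant in both groups of aortic RNA. The next brightest white adipocyte markers were not higher with the drug. Car3 had 134992 and 123723 against 132951 and 127472, with overlap, and Thrsp had 82561 and 82944 against 91857 and 96372, without overlap. Lower with the drug were macrophage markers, at 38795 to 40917 against 85184 to 90912 over 18 genes, with 15 of 16 below 0, and smooth muscle markers, at 63138 to 70634 against 127508 to 152447 over 10 genes, with 10 of 10 below 0. In limma 1 gene of each of these lists passed, Cd14 and Tagln, and 0 of the adipocyte markers. Cd14 alone had 3496 and 3642 with rosiglitazone, against 27529 and 26830 with vehicle, a large part of the lower macrophage sum. The median log2 difference of the macrophage list was -0.70. At an unadjusted p under 0.05, 4 white and 2 brown adipocyte markers were higher and 0 lower, while 7 macrophage and 7 smooth muscle markers were lower and 0 higher. Of all 7134 probe sets tested, 776 had such a p in either direction. The smooth muscle count includes Smtn, at 285 and 346 with rosiglitazone, against 1698 and 1705 with vehicle. Both treated values lay under the filter of 414, so Smtn was tested only through its vehicle arrays. The part of these marker shifts in the values of Fabp3, Fabp4, Fabp5 and Cd36 and of the lists of fatty acid handling was not tested.

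Endothelial markers, which belong to a further cell type with Fabp4, Fabp5 and Cd36, summed to 33892 to 39737 with rosiglitazone and 39383 to 47544 with vehicle over 12 genes, with 9 of 12 below 0 and a median of -0.32. Cardiac and skeletal muscle markers, which go with Fabp3, overlapped between the groups, at 46315 to 51648 and 51402 to 52948 over 20 genes, with 7 of 14 above 0 and a median of -0.06. Myh6, the cardiac myosin heavy chain, had 2618 and 3476 with rosiglitazone, against 3087 and 3529 with vehicle, and Mb, myoglobin, had 3630 and 2320 against 3157 and 3426, whereas Tnnt2, cardiac troponin T, had 3697 and 3354 against 2379 and 1746 (log2 difference 0.79, adjusted p = 0.355 in limma). Erythrocyte markers summed to 507470 to 669832 and 564339 to 658452 over 6 genes, with overlap, a sum made up mostly of the bright globin Hba-a1. The median over the 5 tested was -0.73. In limma 0 passed, and at an unadjusted p under 0.05 3 were lower (Bpgm, Alas2 and Hbb-b2) and 0 higher. Schwann cell and nerve markers summed to 6504 to 8080 and 6947 to 7457 over 8 genes, with overlap. Of all markers on the array Nefm, a neurofilament, was the 1 under the floor on all 4 arrays.

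**Figure D5:**
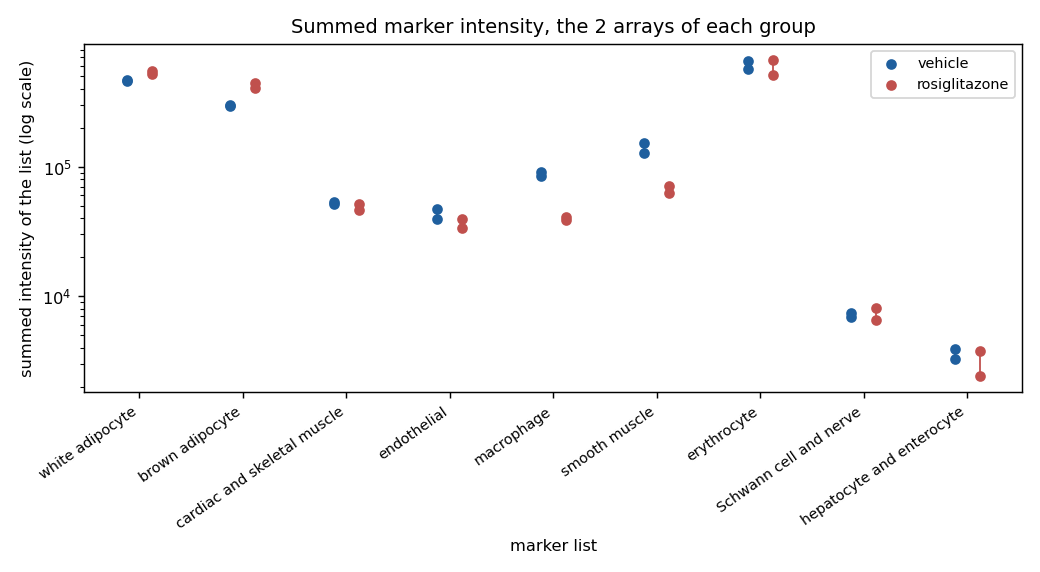
Summed deposited intensity of each marker list on a log axis, with 1 point for each of the 2 arrays of a group joined by a line, vehicle in blue and rosiglitazone in red. Brown adipocyte sums lie higher with rosiglitazone (406005 to 443134 against 293045 to 297324), macrophage and smooth muscle sums lie lower, and muscle sums overlap.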

How the data were processed

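The deposited values are hybridisation intensities, 1 whole number per probe set and array; the software and background correction that made them are not given in the sources used here. A mean trimmed by 2% at each end was 1501 on all 4 arrays, so the deposited intensities were on a common scale and were not scaled again. Probe sets were named from the platform's probe table through gene identifiers in a RefSeq table of GRCm38.p6. Control probe sets (66 of 12488) were left out.

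Groups were compared with limma 3.58.1 in R 4.3.3 (lmFit, eBayes with an intensity trend, two-sided, Benjamini-Hochberg over the 7134 probe sets kept); the procedure was tested on simulated data. With 2 arrays a group, the number of arrays limits the precision. The 10 genes, the lists and the tests were chosen with earlier results of these data known. Named were all 12 probe sets and list genes past the threshold or the 4 of smallest p. So were the 5 nearest patterns to Fabp3 and to Fabp4, and up to 3 of the brightest genes of a marker list. Myh6, Mb, Tnnt2, Nefm, Bpgm, Dio2, Ehhadh, Smtn, the dimmer Scp2 probe set, Scd1, Retn, Ppara, Pparg, Fabp6 and Fabp9 were named after their values were seen. Alternatives changed the floor, scaling, filter, trend, probe set choice and arrays used. Protein sequences were not analysed here.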

Additional observations from a re-analysis of the deposited data

How the results depend on the processing

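The log2 difference of Fabp3 was positive under all 12 alternatives run, from 1.39 to 1.70, and past the threshold under 8 of them. It was 1.55 but not past it with no filter and with no intensity trend, and with 1 array left out it ran from 1.39 to 1.70, the calls being lost without vehicle replicate 3 or 4. The number of called probe sets of the 10 genes was then 0, and 0 to 1 with 1 array left out. Fabp4 lay between -0.50 and 0.13 with 1 array left out. The change of the Fabp3 to Fabp4 ratio lay between 1.49 and 1.97. Signs turned for Cd36 (-0.23 and -0.20 without rosiglitazone replicate 2 and without vehicle replicate 4, up to 0.62 without another array), for Slc27a4 (0.58 and 0.60 without the same arrays, down to -0.78) and for Dbi (-0.027 with quantile normalization, -0.087 to 0.15 with 1 array left out). The median of the list of fatty acid release, activation and other carriers ran from -0.29 to 0.17 with 1 array left out, below 0 in 3 of 4 cases.

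The count of all called probe sets, 26, was 17 with no floor and with arrays centred on the median, 0 with no filter, 7 with no trend, and 1 to 78 with 1 array left out. With no filter all 12422 probe sets entered the adjustment; other causes were not tested. The called list gene, Lipa, gave way to 0 genes with arrays centred on the median, no filter or no trend, to Aqp7 with the filter at the 60th percentile, and to 0 to 2 with 1 array left out (Acaa1b and Retn without rosiglitazone replicate 1, Hsd17b4 and Lipe without replicate 2). A group left with 1 array was assumed to vary like the other. No paired analysis was possible because the groups share no replicate numbers.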

Other observations

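Fabp6, the ileal bile acid binding protein of the same family, was looked at after its values were seen. On its brightest probe set it had 708 and 936 with rosiglitazone, against 207 and 187 with vehicle, with no overlap between the groups and a log2 difference of 2.05. Its mean lay just under the intensity filter, so it was not tested. The vehicle values lay near the floor of 148, so the size of the difference is uncertain. Of the 7134 probe sets tested, 40.8% had groups that did not overlap. Fabp9, the testis-type protein that lies between Fabp5 and Fabp4 on the chromosome, had 109 and 415 with rosiglitazone, against 205 and 125 with vehicle, with overlap.

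Retn had 1 array far below the others, at 2422 and 350 with rosiglitazone, against 2681 and 2552 with vehicle, and its groups did not overlap. Of the nuclear receptors that fatty acids bind, Ppara had 15773 and 22435 with rosiglitazone, against 10019 and 10141 with vehicle (log2 difference 0.90, adjusted p = 0.154 in limma), and Pparg had 3331 and 1664 against 3843 and 3238 (-0.58, adjusted p = 0.602). Neither passed the threshold, and the Pparg groups overlapped, with rosiglitazone replicate 2 the low array.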
